A study of Homo sapiens with 9 samples.

Results

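The cohesin ring genes SMC1A, SMC3 and RAD21, the ring-bound subunits STAG1 and STAG2, the regulators PDS5A and PDS5B, the loader genes NIPBL and MAU2 and the boundary factor CTCF were followed in EPC2 cells given a FOXF1 plasmid. The 10 genes were taken by symbol from a table of 64253 genes, and all 10 had enough reads to be among the 16366 genes tested. NIPBL was chosen because its level was low after FOXF1 plasmid transfection, so its values in the plasmid comparisons are given as a description, without a test. EPC2 is a human line that the labels describe as normal squamous cells of the esophagus, and all libraries come from this line. The groups, each of 3 libraries that the design calls biological triplicates, were cells given the FOXF1 plasmid with Lipofectamine 2000 (labelled Fox), cells given the empty vector with the same reagent (Lipo), and untreated cells (Ctrl). FOXF1 is a forkhead transcription factor, and the counts do not show what share of cells carried the plasmid. All p-values weigh differences against the spread between these 9 libraries.

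Cohesin is a protein ring that holds DNA. SMC1A and SMC3 are its long ATPase arms, RAD21 is the subunit that closes the ring and is cleaved when sister chromatids separate, and one STAG protein sits on RAD21. NIPBL and MAU2 form the loader that puts the ring on DNA and, for NIPBL, drives it to extrude loops. PDS5 proteins act with the release and the acetylation of the ring, and CTCF binds DNA in a direction that stops extruding rings at loop anchors. Variants of NIPBL, SMC1A, SMC3 and RAD21 cause Cornelia de Lange syndrome, mostly through loss of one NIPBL copy. In dividing epithelial cells the same ring holds sister chromatids together until anaphase.

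RefSeq promoter windows of GRCh38.p14, from 250 bases before a gene's start to 50 after it, were used for 9 of the 10 genes, as 12 windows. RAD21 was left out of this step, so its promoter was not searched. The sequences of 4 genes are shown because they span the responses described next. These are NIPBL, the gene chosen for its low plasmid level, and MAU2, its partner. The others are SMC1A, lower in both transfected groups, and STAG2, the only one of the 9 searched genes with a forkhead word. Capitals mark 3 words and their reverse complements: the forkhead core TGTTTA, the CCAAT box and the GC box GGGCGG. The windows lie at chr5:36876519-36876818 (plus strand), chr19:19320579-19320878 (plus), chrX:53422679-53422978 (minus) and chrX:123960310-123960609 (plus), in the order NIPBL, MAU2, SMC1A, STAG2.
NIPBL: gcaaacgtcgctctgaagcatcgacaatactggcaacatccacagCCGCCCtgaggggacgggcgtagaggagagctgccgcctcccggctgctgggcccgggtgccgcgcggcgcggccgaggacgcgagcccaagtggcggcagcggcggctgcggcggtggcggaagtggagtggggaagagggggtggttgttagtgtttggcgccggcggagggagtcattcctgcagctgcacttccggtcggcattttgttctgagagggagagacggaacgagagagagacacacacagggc
MAU2: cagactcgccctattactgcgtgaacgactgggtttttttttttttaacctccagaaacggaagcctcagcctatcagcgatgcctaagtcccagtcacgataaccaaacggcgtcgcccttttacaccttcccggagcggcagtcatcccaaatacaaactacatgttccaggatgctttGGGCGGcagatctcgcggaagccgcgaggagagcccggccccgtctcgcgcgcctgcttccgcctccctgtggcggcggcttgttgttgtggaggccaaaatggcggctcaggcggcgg
SMC1A: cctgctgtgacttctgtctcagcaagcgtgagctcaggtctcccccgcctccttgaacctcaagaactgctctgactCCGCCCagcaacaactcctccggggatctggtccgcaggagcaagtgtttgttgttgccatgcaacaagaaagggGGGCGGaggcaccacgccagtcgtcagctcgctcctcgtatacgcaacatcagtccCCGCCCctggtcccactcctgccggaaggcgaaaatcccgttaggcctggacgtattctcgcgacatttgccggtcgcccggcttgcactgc
STAG2: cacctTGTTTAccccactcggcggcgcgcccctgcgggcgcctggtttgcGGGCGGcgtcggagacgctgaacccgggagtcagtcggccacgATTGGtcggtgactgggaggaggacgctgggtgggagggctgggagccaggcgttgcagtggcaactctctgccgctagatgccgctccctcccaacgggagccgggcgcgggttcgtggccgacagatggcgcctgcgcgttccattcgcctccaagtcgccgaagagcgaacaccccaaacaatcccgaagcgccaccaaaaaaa
The forkhead core was present in 1 of the 12 windows, the first of 3 STAG2 windows and the one shown, where it began at base -245 from the start. The other STAG2 windows had 0 matches. SMC1A has 2 windows, of which the first is shown. It was present in 12.3% of all 35116 windows of the same length, and the longer form TGTTTAC in 3.42%. GC boxes stood in 45.0% of all windows and CCAAT boxes in 34.6%. The NIPBL window holds 1 GC box, the MAU2 window 1 and the SMC1A window shown 3. A matched word is a description of letters and says nothing of binding.

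Total counts ran from 34390666 to 39973289 a library, and the FOXF1 gene had 367, 184 and 141 reads in the plasmid libraries, against 0, 0 and 6 with the empty vector and 1, 0 and 0 in untreated cells. Levels are CPM, read counts scaled by library size, after TMM factors (a trimmed mean of ratios) that correct for composition. Mitochondrial genes took 13.7 to 14.7% of reads with the plasmid, 10.3 to 11.7% with the empty vector and 18.6 to 22.4% in untreated cells. The squamous label was only partly met. Of 7 basal squamous markers 4 stayed under 1 CPM in every library, TP63 with 0 reads in all, and of 8 differentiation markers 7 stayed under 1 CPM. The basal markers summed to 114 to 122 CPM with the plasmid, 114 to 124 with the empty vector and 97.1 to 108 in untreated cells. Nearly all of this came from ITGB4, CDH3 and ITGA6, at means of 74.7, 26.5 and 11.8 CPM over all libraries. KRT5, KRT15 and KRT14 averaged 0.31, 0.141 and 0.0559 CPM. Simple keratins and other columnar markers summed to 3950 to 4210 CPM with the plasmid, 3450 to 3870 with the empty vector and 4060 to 4690 in untreated cells. That sum came mostly from KRT7, KRT8 and KRT18, at means of 1130, 1400 and 1290 CPM over all libraries. CDH1 and EPCAM averaged 9.16 and 4.53 CPM, and KRT20 had 0 reads in all. Mesenchymal markers summed to 3220 to 3580 CPM with the plasmid, 2950 to 3140 with the empty vector and 2940 to 3170 in untreated cells. Of these 10 markers 6 were under 1 CPM in every library, COL1A2 and LUM with 0 reads, and the sum came mostly from COL1A1, THY1 and VIM. With the empty vector against untreated cells PDGFRB was at 0.47 (edgeR adjusted p = 6.67e-05), COL1A1 at 0.30 (0.00431) and THY1 at -0.28 (0.00368). Of the 4 tested, 2 were called higher and 1 lower, beside 10.2% and 9.37% of all tested genes. For leukocytes and endothelium, 4 of 4 leukocyte and 4 of 4 endothelial markers were under 1 CPM throughout. A gene with 0 reads could have a level of up to 0.087 CPM in the shallowest library, taking 3 counts as the limit. The part of these shifts in the results that follow was not tested.

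Per length, RAD21 was the most abundant of the 10 transcripts in every group and NIPBL or PDS5B the least. In CPM per kilobase of the principal annotated transcript, RAD21 averaged 22.9 with the plasmid, 26.5 with the empty vector and 21.2 in untreated cells. SMC1A followed at 10.5 CPM per kilobase with the plasmid, 10.5 with the empty vector and 12.8 in untreated cells. CTCF, at 8.76 with the plasmid, 9.11 with the empty vector and 9.24 in untreated cells, and MAU2, at 8.18, 8.07 and 7.92 in the same groups, overlapped only in the plasmid libraries. SMC3, whose protein pairs with SMC1A, was far lower, at 1.89 CPM per kilobase with the plasmid, 2.21 with the empty vector and 2.51 in untreated cells. PDS5A followed, at 1.59 with the plasmid, 1.81 with the empty vector and 1.83 in untreated cells, overlapping STAG1 only with the empty vector. The last 4 places were held by STAG1, STAG2, NIPBL and PDS5B, all at or under 1.37 CPM per kilobase. Of these, STAG1 and STAG2 overlapped with the empty vector and in untreated cells. PDS5B, at 0.394 CPM per kilobase, did not overlap NIPBL, at 0.348, with the plasmid, though the 2 genes overlapped in the other groups. With all exons of a gene as its length the order of CTCF and MAU2, and of NIPBL and PDS5B, turned round in both transfected groups. On that length RAD21 stayed first in every group. In untreated cells its lead was then small, at 12.8 CPM per kilobase against 12.0 for SMC1A, and the libraries of these genes overlapped. Over the 10 genes, the level per kilobase had a rank correlation of 0.72 with the GC content of the transcript. These levels are not corrected for GC content, and its part in the order was not tested.

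**Figure D1:**
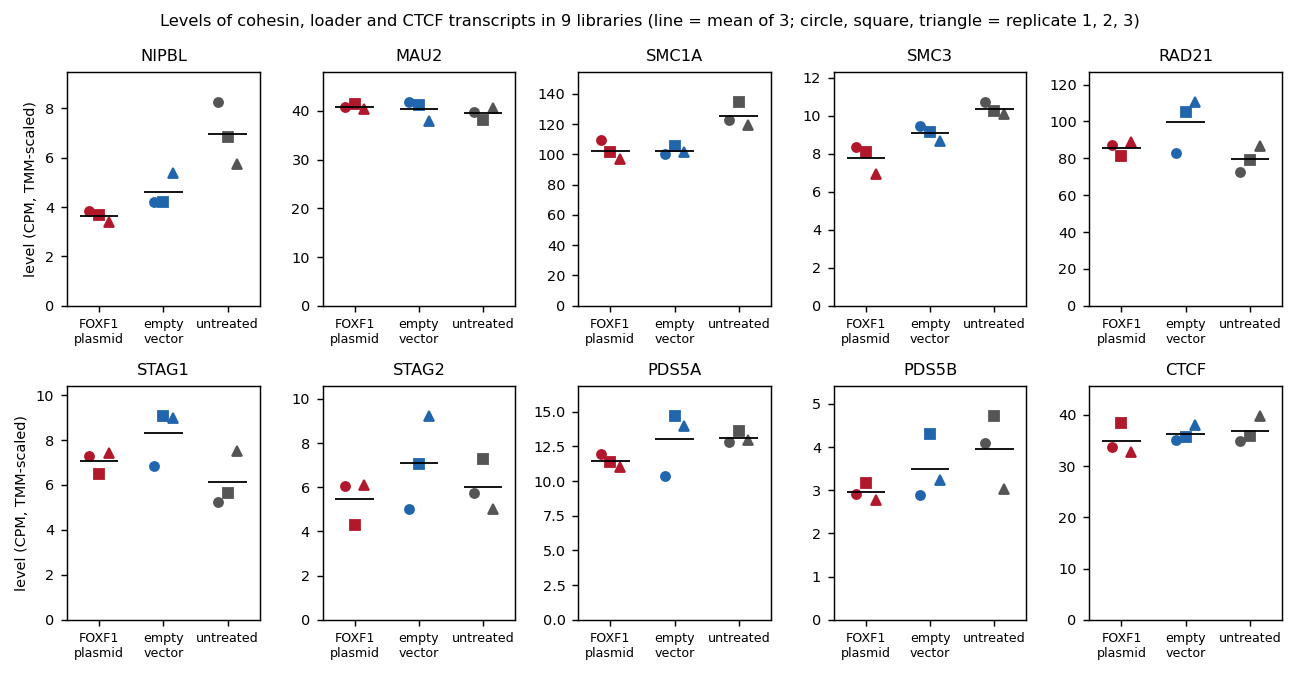
Level of each gene in TMM-scaled CPM (linear axes from 0, a panel per gene) in the 9 libraries of the FOXF1 plasmid, empty vector and untreated groups. Points are libraries, with a marker shape per replicate number, and lines are means of 3. NIPBL sits lowest with the plasmid, at 3.39 to 3.83 CPM, and highest in untreated cells, at 5.73 to 8.25 CPM, while MAU2 keeps between 38.0 and 41.8 CPM in all libraries.

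NIPBL, the loader's large subunit, was at its lowest with the FOXF1 plasmid. It had 3.83, 3.68 and 3.39 CPM with the plasmid, 4.19, 4.20 and 5.39 CPM with the empty vector and 8.25, 6.86 and 5.73 CPM in untreated cells. The plasmid libraries all lay below the empty vector libraries, which all lay below the untreated ones. Of all tested genes, 5.68% had every plasmid library below the empty vector libraries. In 15.3% every empty vector library lay below the untreated ones. Averages were 3.63 ± 0.224 CPM with the plasmid, 4.59 ± 0.693 CPM with the empty vector and 6.95 ± 1.26 CPM in untreated cells (SD, n = 3 each). The plasmid level was 79% of the empty vector level, a log2 fold change of -0.34 ± 0.18 (SE). It was -0.21 without empty vector replicate 3 and -0.15 with offsets for GC content and length. The plasmid level was 52.3% of the untreated level, at -0.93 ± 0.18. NIPBL rested on 125 to 290 reads a library, for which counting error alone is 5.87 to 8.94%. Fewer cells with the transcript and less of it per cell cannot be told apart in bulk RNA.

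NIPBL was also lower with the empty vector than in untreated cells, at 66.2% of the untreated level. Its log2 fold change was -0.60 ± 0.17, with a 95% interval of -0.95 to -0.25 and an adjusted p of 0.0127 in edgeR's quasi-likelihood test. The empty vector and untreated libraries also serve in the plasmid comparisons that NIPBL was chosen from, so this test is not independent of the choice. Without untreated replicate 1 the change was -0.47 with an adjusted p of 0.105, and without empty vector replicate 2 it was -0.53 with an adjusted p of 0.0736. MAU2, the loader's partner subunit, averaged 40.9 ± 0.485 CPM with the plasmid, 40.3 ± 2.04 with the empty vector and 39.5 ± 1.24 in untreated cells. Its change with the empty vector against untreated cells was 0.03, with a 95% interval of -0.12 to 0.18, and with the plasmid against the empty vector 0.02, from -0.13 to 0.17. MAU2 values overlapped in all 3 groups. Per 100 MAU2 reads, NIPBL gave 8.88 ± 0.51 reads with the plasmid, 11.5 ± 2.4 with the empty vector and 17.6 ± 3.3 in untreated cells. These shares are of reads and not per length. Empty vector replicate 3, at 14.2%, lay just above the lowest untreated library, at 14.1%.

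**Figure D2:**
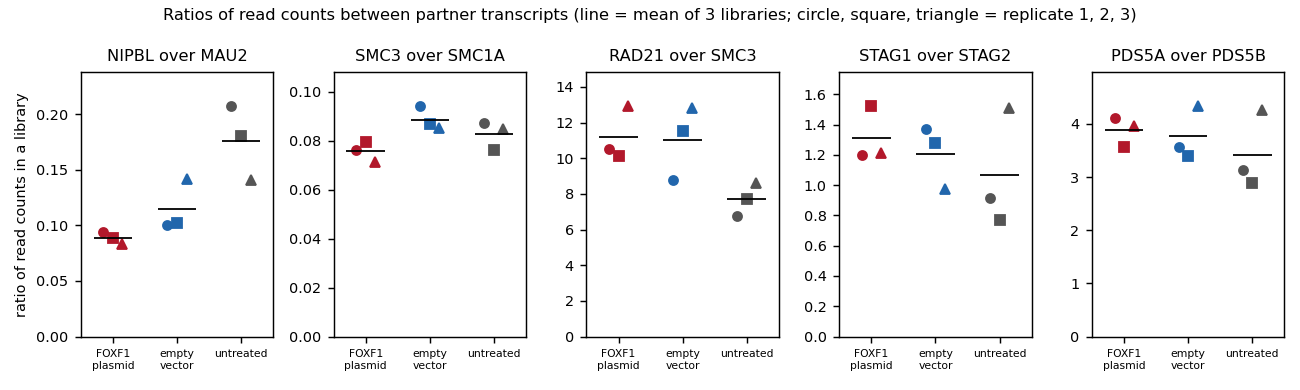
Ratio of read counts between partner transcripts within each library, not corrected for length, with lines at the means of 3 libraries. NIPBL over MAU2 averages 0.0888 with the plasmid, 0.115 with the empty vector and 0.176 in untreated cells, and RAD21 over SMC3 averages 11.1 with the plasmid, 11.0 with the empty vector and 7.69 in untreated cells.

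Of the ring genes, SMC1A was lower in both transfected groups, SMC3 was lowest with the plasmid, and RAD21 was highest with the empty vector. SMC1A had 109, 101 and 97.0 CPM with the plasmid, 101, 105 and 102 CPM with the empty vector, and 123, 134 and 119 CPM in untreated cells. All 6 transfected libraries lay below the untreated ones, and the transfected groups overlapped. Of all tested genes, 15.3% lay wholly below untreated cells with the empty vector and 12.6% with the plasmid. The change was -0.29 ± 0.07 with the empty vector against untreated cells, with an adjusted p of 0.00189, and -0.29 ± 0.07 with the plasmid against untreated cells, with an adjusted p of 0.00459. SMC1A differed by 0.00 between the plasmid and the empty vector, with a 95% interval of -0.14 to 0.14. SMC3 had 8.33, 8.06 and 6.91 CPM with the plasmid, 9.46, 9.15 and 8.65 with the empty vector and 10.7, 10.2 and 10.1 in untreated cells. Its 3 groups did not overlap. Plasmid libraries lay wholly below empty vector ones in 5.68% of all tested genes, and the shares below untreated cells are those given for SMC1A. For SMC3 only the plasmid against untreated cells passed the test, at -0.41 ± 0.13 with an adjusted p of 0.0411. This call was lost when any 1 of the 6 libraries was left out, with changes of -0.47 to -0.33 and adjusted p-values of 0.0549 to 0.205. Against the empty vector SMC3 was at -0.23 ± 0.13 with an adjusted p of 0.598, and ran from -0.28 to -0.15 with a library left out.

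RAD21 had 87.1, 81.1 and 89.0 CPM with the plasmid, 82.8, 105 and 110 CPM with the empty vector and 72.4, 78.9 and 86.8 CPM in untreated cells. Empty vector replicate 1 lay among the plasmid and untreated values, and its other replicates above them. RAD21 rose with the empty vector against untreated cells by 0.33 ± 0.08, with an adjusted p of 0.00529. The rise was 0.25 with an adjusted p of 0.0527 without untreated replicate 1, and 0.25 with 0.0586 without empty vector replicate 3. With the plasmid against the empty vector its change was -0.21 ± 0.08, with an unadjusted p of 0.0151 and an adjusted p of 0.426. Without empty vector replicate 1 it was -0.33 with an adjusted p of 0.0173, and without empty vector replicate 3 it was -0.13. RAD21 shares 8.4% of its exon bases with UTP23 on the other strand, a gene with 2.9% as many reads.

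STAG1 and STAG2 encode alternative ring-bound subunits, and of these STAG1 passed a test, with the empty vector against untreated cells. STAG1 had 7.31, 6.503 and 7.41 CPM with the plasmid, 6.84, 9.06 and 8.998 with the empty vector and 5.26, 5.62 and 7.52 in untreated cells. STAG1 rose with the empty vector against untreated cells by 0.44 ± 0.16, with an adjusted p of 0.0475. Empty vector replicate 1 and untreated replicate 3 lay inside the other group's range. The call did not hold without untreated replicate 1 or 2 or empty vector replicate 2 or 3, and over the 6 libraries left out in turn the change was 0.33 to 0.60, with adjusted p-values of 0.00907 to 0.227. STAG1 shares 21.2% of its exon bases with PCCB on the other strand, and PCCB had 18120 reads over the 9 libraries, against 2504 for STAG1. The strand setting of the counting is not given, so it is not known to which gene, if any, reads of the shared bases were counted. PCCB itself was at -0.08 in that comparison with an adjusted p of 0.542. STAG2 had 6.07, 4.27 and 6.11 CPM with the plasmid, 5.00, 7.06 and 9.21 with the empty vector and 5.74, 7.28 and 4.99 in untreated cells. Its groups overlapped. The STAG2 changes were -0.37 ± 0.19 with the plasmid against the empty vector, with an adjusted p of 0.559, and 0.24 ± 0.19 with the empty vector against untreated cells, with an adjusted p of 0.42. With a library left out they ran from -0.57 (without empty vector replicate 1) to -0.14 (without empty vector replicate 3) and from 0.01 (without empty vector replicate 3) to 0.44 (without empty vector replicate 1).

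PDS5A, PDS5B and CTCF did not pass the test in any comparison. PDS5A had 12.0, 11.4 and 11.0 CPM with the plasmid, 10.3, 14.7 and 14.0 with the empty vector and 12.8, 13.6 and 12.9 in untreated cells. Its plasmid libraries lay below the untreated ones, as in 12.6% of all tested genes. The PDS5A change there was -0.20 ± 0.12 with an adjusted p of 0.378. PDS5B was between 2.77 and 3.18 CPM with the plasmid, 2.90 and 4.31 with the empty vector and 3.03 and 4.71 in untreated cells, with the groups overlapping. Its change with the plasmid against untreated cells was -0.42 ± 0.21, with an adjusted p of 0.233, and -0.28 without untreated replicate 2. CTCF was between 32.8 and 38.4 CPM with the plasmid, 35.2 and 38.0 with the empty vector and 35.0 and 39.7 in untreated cells. Its 95% intervals of log2 change were -0.22 to 0.11 for the plasmid against the empty vector and -0.19 to 0.14 for the empty vector against untreated cells.

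**Figure D3:**
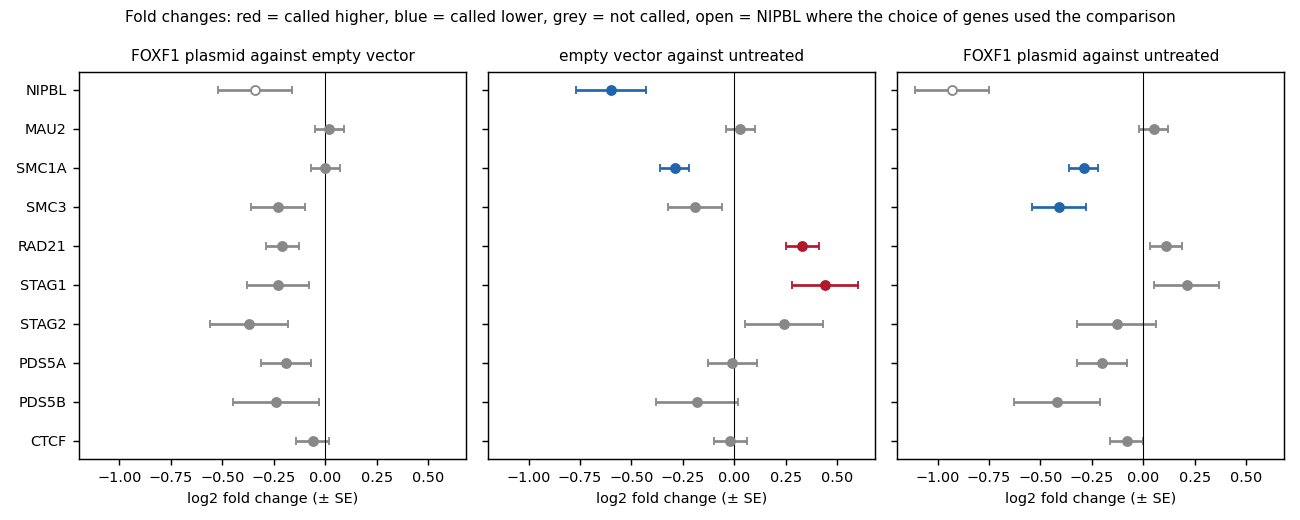
Log2 fold change of the 10 genes in the 3 comparisons, with bars of 1 SE from the edgeR fit; positive values are higher in the group named first. NIPBL lies at -0.34 for the plasmid against the empty vector, -0.60 for the empty vector against untreated cells and -0.93 for the plasmid against untreated cells, and CTCF and MAU2 lie near 0 in all comparisons.

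Counted over the genes, the comparison with the plasmid against the empty vector called 0 of the 9 genes other than NIPBL by edgeR and by limma-voom. DESeq2 also called 0, but it gave no adjusted p for some of them, MAU2, SMC3, STAG1 and STAG2 included, and so could not call these. At an unadjusted edgeR p under 0.05 there was 1 of the 9, RAD21, beside 1543 of all 16366 tested genes. In that comparison 9 of 16366 genes were called (0.055%). The empty vector against untreated cells called 3 of the 9 other genes, SMC1A lower and RAD21 and STAG1 higher, and also NIPBL as lower, whose test is not independent of its choice, where 19.6% of all tested genes were called, 9.37% lower and 10.2% higher. The plasmid against untreated cells called 2 of the 9 others, SMC1A and SMC3, both lower, where 8.52% of all tested genes were called, 3.89% lower and 4.63% higher. The median log2 change of the 9 other genes was -0.21 with the plasmid against the empty vector, beside -0.01 for all tested genes. It was -0.01 with the empty vector against untreated cells, beside 0.04, and -0.13 with the plasmid against untreated cells, beside 0.02. All 3 comparisons share groups of libraries, so they are not independent of each other.

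Most of the 10 transcripts are low in GC, and fold changes across all genes varied with base composition. The 10 had a median GC content of 40.5% against 50.4% for the tested genes, and a median length of 6.05 against 2.77 kilobases. MAU2, at 57.3% GC, lay above the median of the tested genes, and SMC1A at 47.1% and CTCF at 47.7% lay not far below it. Across 16213 genes, as a description, the rank correlation of log2 change with GC content was 0.39 for the plasmid against the empty vector, -0.27 for the empty vector against untreated cells and -0.04 for the plasmid against untreated cells. Genes in the lowest GC bin had a median change of -0.217 in the first of these and 0.254 in the second. With offsets for GC content and length, NIPBL changed by -0.15 with the plasmid against the empty vector and by -0.88 against untreated cells. The other 9 were then between -0.13 and 0.08 for the plasmid against the empty vector. With the empty vector against untreated cells, the offsets gave -0.73 for NIPBL (adjusted p = 0.001) and -0.33 for SMC1A (2.63e-05). RAD21 was then at 0.15 with an adjusted p of 0.0624, STAG1 at 0.27 with 0.181, and SMC3 at -0.37 with 0.0437. With the replicate number as a block in the same fit, those 3 adjusted p-values were 0.0526, 0.16 and 0.0254.

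**Figure D4:**
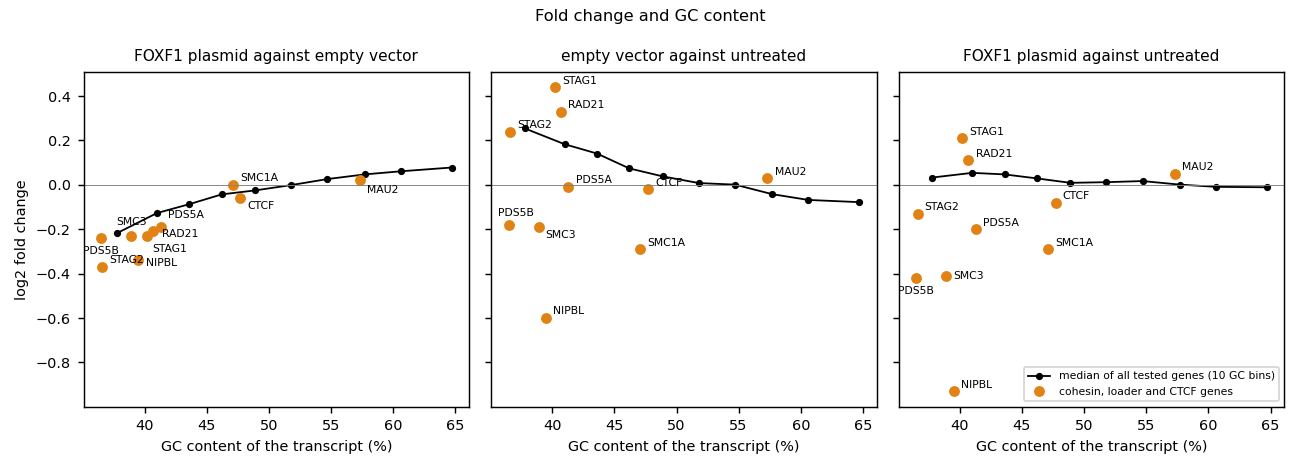
Log2 fold change against transcript GC content for the 10 genes (orange) and the median of all tested genes in 10 GC bins (line), in the 3 comparisons. The line climbs with GC content for the plasmid against the empty vector and declines for the empty vector against untreated cells, where its lowest bin is at 0.254.

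Scaling by library totals alone, without TMM, raised the median of all tested genes by 0.246 in the empty vector against untreated cells and by 0.148 in the plasmid against untreated cells. The calls over all genes were then 5721 higher and 338 lower for the empty vector against untreated cells, where TMM gave 1676 and 1533. For the plasmid against untreated cells they were 2320 higher and 180 lower, where TMM gave 757 and 637. On that scale SMC1A was at -0.04 (adjusted p = 0.641) and NIPBL at -0.34 (0.121) in the empty vector comparison, and MAU2 at 0.27 with an adjusted p of 0.00786. Relative to the median of all genes there, 0.289, MAU2 did not lie above it. In the plasmid against untreated cells SMC1A was at -0.14 (0.172) and SMC3 at -0.26 (0.18). Leaving mitochondrial genes out before scaling gave -0.59 for NIPBL and -0.29 for SMC1A in the empty vector comparison.

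**Figure D5:**
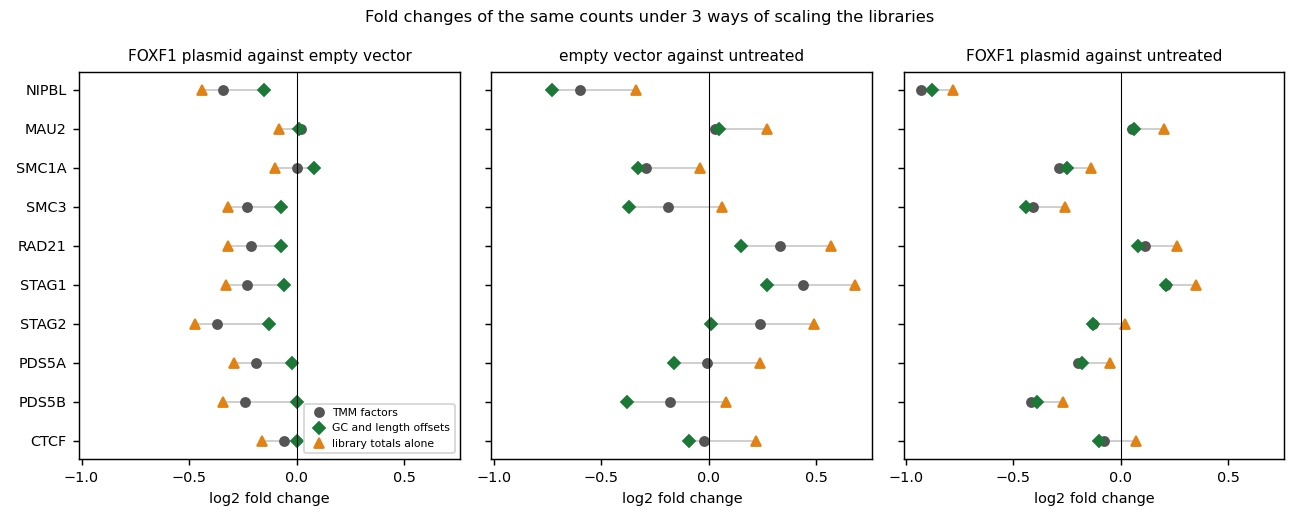
Log2 fold change of the 10 genes in the 3 comparisons with TMM factors (circles), GC and length offsets (diamonds) and library totals alone (triangles). NIPBL stays below 0 under all 3 scalings in every comparison, at -0.44, -0.34 and -0.78 with library totals alone.

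On TMM-scaled libraries, other genes of the cohesin pathway were not called with the plasmid against the empty vector, where 0 of the 18 tested regulators, 0 of 14 condensin and SMC5/6 genes, 0 of 15 architectural factors and 0 of 20 proliferation genes were called. Only 0.055% of all tested genes were called in that comparison. With the empty vector against untreated cells, 1 of 18 regulators rose and 2 fell, where 10.2% of all tested genes rose and 9.37% fell. ANKRD11, a chromatin factor, changed by 0.24 (adjusted p = 0.0168), PPP2R1A, the scaffold of the phosphatase that protects cohesin at centromeres, by -0.28 (0.0014), and PTTG1, the separase inhibitor, by -0.40 (0.000249). With the plasmid against untreated cells 1 of 18 was called, PPP2R1A at -0.20 (0.0434), where 8.52% of all tested genes were called. The list's median change was -0.05 with the plasmid against the empty vector, 0.03 with the empty vector against untreated cells and -0.05 with the plasmid against untreated cells. REC8, a meiotic kleisin, was the 1 of 2 tested germline cohesin genes called, at 4.67 ± 0.734 CPM with the plasmid against 3.12 ± 0.283 CPM in untreated cells (log2 0.58, adjusted p = 0.0477).

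Condensin and SMC5/6 genes, which belong to related ring complexes, rose in 1 case of 14 with the empty vector against untreated cells (NSMCE2, at 0.58, adjusted p = 0.0115) and fell in 4 (NCAPD2, NCAPH, NCAPH2 and NSMCE1, between -0.33 and -0.20), beside 10.2% higher and 9.37% lower of all tested genes. Their median change was -0.04 there and -0.16 with the plasmid against untreated cells, where 0 of 14 were called. Among architectural factors, YY1 rose by 0.61 (2.4e-06) and LBR, which anchors chromatin to the nuclear lamina, by 0.49 (0.000677), while CHD8, a chromatin remodeler, fell by 0.41 (4.52e-05). The list of 15 had 3 rises and 3 falls, beside the same shares of all genes, and a median of 0.00. With the plasmid against untreated cells YY1 rose by 0.44 (0.000522) and CHD8 fell by 0.37 (0.000356), among 1 rise and 3 falls with a median of -0.09, where 4.63% of all tested genes rose and 3.89% fell. YY1 binds promoters and enhancers and can bridge them. Of 20 proliferation genes 8 fell and 2 rose with the empty vector against untreated cells, where 9.37% of all tested genes fell and 10.2% rose. The falls included TPX2 at -0.49 (edgeR adjusted p = 5.38e-06) and MKI67 at -0.56 (1.58e-05), and the rises CCNB1 at 0.26 (0.00486). With the plasmid against untreated cells 5 of 20 fell, where 3.89% of all tested genes fell. The 20 genes had a median change of -0.08 for the plasmid and -0.03 for the empty vector, each against untreated cells. The list summed to 3110 to 3210 CPM with the plasmid, 3070 to 3130 with the empty vector and 3370 to 3430 in untreated cells. Its part in the cohesin changes was not tested. Of the 52 clustered protocadherins, whose promoter choice depends on CTCF and cohesin, 15 were tested and 0 were called by edgeR in the plasmid against the empty vector, the empty vector against untreated cells or the plasmid against untreated cells, where 0.055%, 19.6% and 8.52% of all tested genes were called. Of the 52, 45 were under 1 CPM in every library. The tested ones had medians of -0.03 for the plasmid against the empty vector, 0.27 for the empty vector against untreated cells and 0.39 for the plasmid against untreated cells.

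Genes whose levels followed NIPBL most closely over the 9 libraries, as a description over libraries that fall into 3 groups, were DCAF7 (Pearson r = 0.961), WNK1 (0.954), HEBP1 (0.945), SRSF2 (0.932) and CDON (0.931), among 7891 genes of sufficient level. The mean over the 10 genes was followed most closely by TTC3 (0.955), USP4 (0.954), AQR (0.942), TOP2B (0.94) and FERMT2 (0.939).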

How the data were processed

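RNA of 9 EPC2 libraries was sequenced from a stranded polyadenylated RNA kit, per the labels. The authors deposited raw read counts per Ensembl gene. The submitters' processing notes name bcl2fastq, STAR 2.5.2b, HTSeq and GRCh38; no source used here gives the strand setting or annotation release. Total counts ran from 34390666 to 39973289. Counts of all libraries were fitted with edgeR 4.0.16 (R 4.3.3; quasi-likelihood test, TMM, filterByExpr with a minimum count of 10, 16366 genes) and adjusted by Benjamini-Hochberg; a gene was called at an adjusted p below 0.05. The script was tested on simulated data. DESeq2 1.42.0, limma-voom (limma 3.58.1), RLE factors, library totals, other filters, left-out libraries and a replicate block were alternatives. GC content and length came from GENCODE on GRCh38, which holds 56591 of 64253 identifiers. The 10 genes and the lists were chosen with earlier results of these data known; all 10 are named, list genes only where called (at most 6 by p), and the 5 genes most like NIPBL and most like the mean of the 10. Same-numbered replicates of the empty vector and untreated groups correlated at 0.40, 0.15 and 0.14 in their deviations from group means. Differently numbered ones lay between -0.33 and 0.24, so pairs by number were not established. The main fit paired no libraries, and the replicate number was a block only in alternatives. The 95% intervals of fold changes come from the edgeR fit and carry the spread between libraries, whereas the limit for 0 reads and the counting errors in percent cover counting error only, since reads are not independent molecules. Protein sequences are not used here.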

Additional observations from a re-analysis of the deposited data

How the results depend on the processing

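With the plasmid against the empty vector, 0 of the 9 genes other than NIPBL were called under every processing alternative, and 0 to 1 when a library was left out (RAD21, without empty vector replicate 1). In that comparison DESeq2 gave no adjusted p for some of the 9, MAU2, SMC3, STAG1 and STAG2 included, and so could not call these. The number of all genes called there depended more on the method: 9 higher and 0 lower, against 106 higher and 2 lower with DESeq2, 56 higher and 40 lower without the low-count filter, 16 higher with RLE factors, 1 higher without mitochondrial genes, 24 higher and 1 lower with the block and GC and length offsets, and 1 to 154 higher and 0 to 172 lower with a library left out. With a library left out, the counts were 1026 to 2106 higher and 982 to 1791 lower for the empty vector against untreated cells (1676 and 1533 with all), and 440 to 761 higher and 350 to 770 lower for the plasmid against untreated cells (757 and 637 with all). For the plasmid against untreated cells they became 1240 and 996 with GC and length offsets. With the empty vector against untreated cells, the 2 genes called higher became 3 with library totals alone and 1 with RLE factors. They became 1 with only the 2 groups compared and 0 with GC and length offsets, without or with a replicate block. With a library left out they were 0 to 2. The 2 called lower, NIPBL among them, became 0 with library totals alone and 3 with GC and length offsets. With a library left out they were 1 to 2. With the plasmid against untreated cells, the 2 called lower became 0 with library totals alone and 1 with any library left out. The cause of these shifts was not tested.

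Signs turned in several values that had not passed the test, some of them up to 0.24 from 0. With library totals alone these were, for the plasmid against the empty vector, MAU2 at -0.08 and SMC1A at -0.10; for the empty vector against untreated cells, SMC3 at 0.06, PDS5A at 0.24, PDS5B at 0.08 and CTCF at 0.22; and for the plasmid against untreated cells, STAG2 at 0.02 and CTCF at 0.07. SMC1A in the plasmid against the empty vector was at -0.01 without mitochondrial genes, without the low-count filter and with only the 2 groups compared, and at 0 with limma-voom. MAU2 in the empty vector against untreated cells was at 0 with RLE factors and with DESeq2. With the block and offsets, PDS5B was at 0.01 in the plasmid against the empty vector, and STAG2 at 0 in the empty vector against untreated cells. With a library left out, MAU2 ran from -0.02 to 0.05 and SMC1A from -0.05 to 0.04 in the plasmid against the empty vector; MAU2 from -0.01 to 0.07, PDS5A from -0.11 to 0.13 and CTCF from -0.07 to 0.03 in the empty vector against untreated cells; and STAG2 from -0.26 to 0.02 in the plasmid against untreated cells.

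The replicate block alone changed no call among the 10 genes in any comparison: 0 and 0 with the plasmid against the empty vector, 2 higher and 2 lower with the empty vector against untreated cells, and 0 higher and 2 lower of the other 9 with the plasmid against untreated cells. It called 16 genes higher in all with the plasmid against the empty vector, against 9 without it. Same-numbered plasmid and empty vector libraries correlated at -0.27, -0.27 and 0.20 in their deviations from group means, and plasmid and untreated ones at 0.04, -0.35 and 0.17. Differently numbered ones lay between -0.24 and 0.41, and between -0.32 and 0.29. Pairs by number were therefore not established in these comparisons either. NIPBL, STAG1, STAG2 and PDS5B had 104 to 399 reads a library, so counting error of 5.01 to 9.81% limits small differences.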
